A study of Homo sapiens and Mus musculus with 27 samples.

Results

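Killer lymphocytes carry a small set of effector genes, and 10 of them were followed here in tumours grown from the mouse mammary carcinoma line 4T1. They were chosen by name for what they are known to do, with earlier results of these data known. The 4T1 count table holds 25239 genes in all. Gzma, Gzmb and Gzmk encode granzymes, Prf1 encodes perforin and Nkg7 a protein of the granule membrane. Ifng encodes interferon gamma and Fasl the ligand of the death receptor Fas. Klrk1 encodes the activating receptor NKG2D, Ncr1 the receptor NKp46, and Tbx21 the transcription factor T-bet. Each gene is given per tumour, in 3 treatment groups, and as a ratio to Cd3e, which encodes a chain of the T cell receptor complex, and to Cd8a, which encodes the co-receptor chain of CD8 T cells.

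RNA was sequenced from 9 tumours implanted in Balb/c mice, 3 in each group, out of a series of 27 libraries. The bortezomib+AMD3100 mice were given 1 mg/kg bortezomib every 4 days with 5 mg/kg AMD3100 every 2 days. The bortezomib+TM mice were given the same bortezomib schedule with 0.05 mg/ml TM in their drinking water, and the vehicle mice received neither. Bortezomib is a proteasome inhibitor and AMD3100 blocks the chemokine receptor CXCR4, while TM is written as the labels write it, unexpanded. No group of mice received bortezomib alone, so a difference from vehicle belongs to the combination. All tumours came from 1 cell line, and neither the implantation site, the age of the mice nor the duration of treatment is known here. The numbers 1 to 3 name tumours within a group. The labels call them biological replicates.

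Cytotoxic T cells and natural killer (NK) cells kill by releasing granules onto a target cell. Perforin opens the target membrane and granzymes, which are serine proteases, enter and start cell death. A second route runs through Fas ligand, and interferon gamma acts more widely by switching on antigen presentation and chemokine genes. T-bet drives this programme in both cell types. NKp46 marks mouse NK cells and other innate lymphocytes and is largely absent from conventional T cells, whereas the remaining genes are shared between NK cells and activated CD8 T cells. The study's title concerns CD8 T cell immunity under proteasome inhibition, and the comparison of these genes between groups addresses whether killer cell transcripts differed with treatment.

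Total counts ran from 38407536 to 50735374 per tumour, and levels are given as CPM, each count over its library's total on a common scale, after TMM scaling, a scaling that allows for differences in library composition. Gene lengths were not used, so a level of one gene is compared between tumours and never with the level of another gene. The tumours differed widely in lymphocyte transcripts within each group. Cd79a, which encodes a chain of the B cell receptor complex, stood at 143, 1.06 and 83.9 CPM in bortezomib+AMD3100 tumours 1, 2 and 3, at 91.0, 45.0 and 0.208 CPM in bortezomib+TM tumours, and at 0.283, 1.80 and 25.6 CPM in vehicle tumours. Thus 1 or 2 tumours in every group were nearly free of B cell transcripts. Vehicle tumour 1 is labelled with a human cell line in some of its other fields but stands in the mouse table under a 4T1 name, and vehicle tumour 2 stood apart as the lowest of all 9 tumours for 8 of the 10 effector genes.

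None of the 10 effector genes passed the test in any comparison. Their mean levels were nevertheless mostly higher in treated than in vehicle tumours. In bortezomib+AMD3100 tumours 9 of 10 lay above vehicle in the fit, with a median log2 change of 0.71, and Gzmb lay below. In bortezomib+TM tumours 9 of 10 also lay above vehicle, with a median of 0.68, and Gzmk lay below. Over all tested genes the medians were 0.0061 and 0.0027. Both comparisons share the vehicle tumours, so their similar medians are not separate evidence. Without vehicle tumour 2 the counts above vehicle were 8 of 10 with bortezomib+AMD3100, with a median of 0.46, and 7 of 10 with bortezomib+TM, with a median of 0.34. Without bortezomib+TM tumour 1 the median with bortezomib+TM was 0.29, with 9 of 10 above vehicle.

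All 10 genes passed the filter on low counts and were among the 15846 tested. With edgeR's quasi-likelihood test and Benjamini-Hochberg adjustment no gene of the table was called at an adjusted p under 0.05 in any comparison (0%), so the count of 0 effector genes matches the background. The smallest adjusted p among the effector genes was 0.634 for bortezomib+AMD3100 against vehicle, 0.887 for bortezomib+TM against vehicle and 0.996 between the treated groups. At an unadjusted p under 0.05 the counts were 0 of 10 effector genes for bortezomib+AMD3100 against vehicle (7.22% of all genes), 1 of 10 for bortezomib+TM against vehicle (4.34%) and 0 of 10 between the treated groups (2.87%). DESeq2 called 17, 3 and 6 genes in the same order of comparisons and limma-voom called 0, and neither called an effector gene. Because these are bulk tumours, fewer cells of a type and less RNA per cell cannot be told apart.

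**Figure D1:**
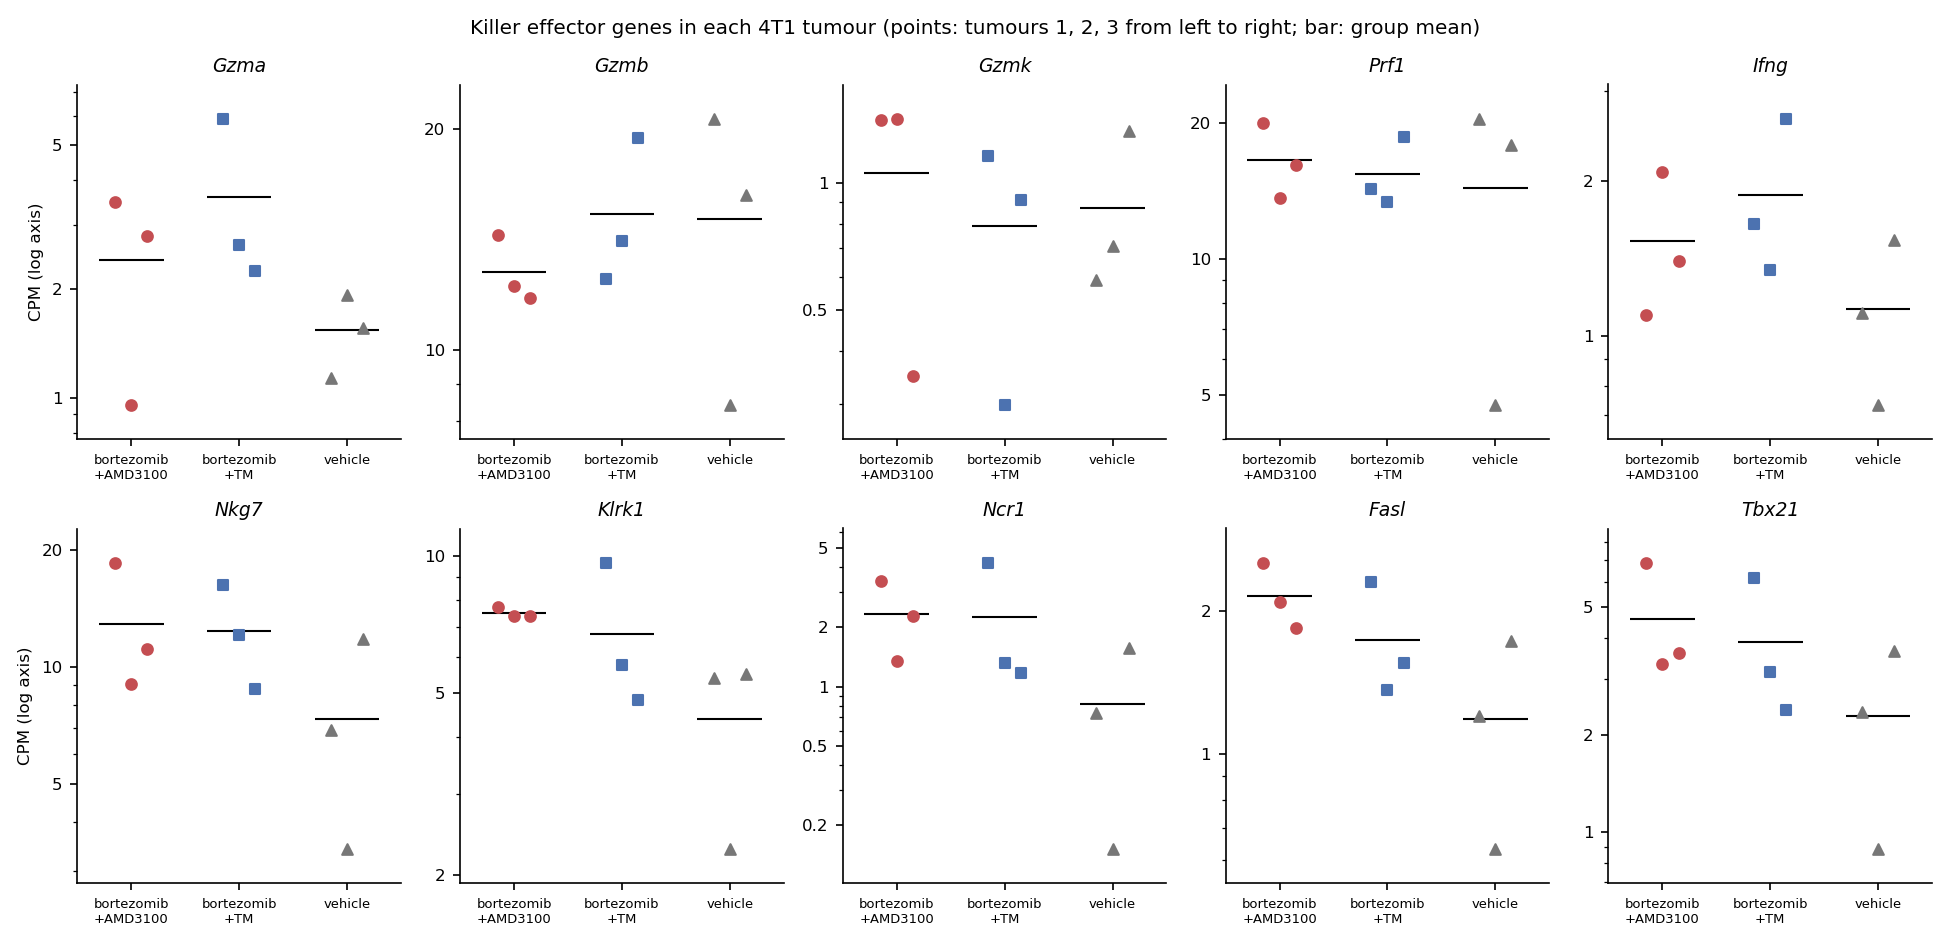
Level of each effector gene in each tumour, in CPM on a log axis, with 1 panel per gene. Points are tumours 1, 2 and 3 of a group from left to right and bars are group means, and vehicle tumour 2 is the lowest point for 8 of the 10 genes.

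The plot of levels by tumour shows how far tumours of 1 group lie apart. Prf1, the pore-forming protein, stood at 19.9, 13.6 and 16.1 CPM in bortezomib+AMD3100 tumours, at 14.3, 13.3 and 18.6 CPM in bortezomib+TM tumours, and at 20.4, 4.76 and 17.8 CPM in vehicle tumours. The groups overlapped, and the highest and the lowest tumour of all 9 were both vehicle tumours. Its fitted log2 change against vehicle was 0.21 (SE 0.44, edgeR adjusted p = 0.911) for bortezomib+AMD3100 and 0.11 (SE 0.44, adjusted p = 0.980) for bortezomib+TM. Without vehicle tumour 2 both changes turned negative, at -0.21 and -0.31.

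Gzmb, the granzyme that cleaves and activates caspases in the target cell, was the least variable of the 10, with a 2.45-fold range over the 9 tumours. It stood at 14.3, 12.2 and 11.8 CPM in bortezomib+AMD3100 tumours, at 12.5, 14.1 and 19.4 CPM in bortezomib+TM tumours, and at 20.6, 8.42 and 16.2 CPM in vehicle tumours. Vehicle tumours again held both ends of the range. The log2 change was -0.24 for bortezomib+AMD3100 against vehicle (95% interval -0.93 to 0.45) and 0.022 for bortezomib+TM against vehicle (-0.67 to 0.71), and without vehicle tumour 2 these were -0.53 and -0.27. Group means were 12.8 ± 1.36 CPM with bortezomib+AMD3100, 15.3 ± 3.63 CPM with bortezomib+TM and 15.1 ± 6.19 CPM with vehicle (SD, n = 3 each).

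Gzma, a granzyme with tryptase activity, was the 1 effector gene whose bortezomib+TM tumours all lay above the vehicle tumours. It stood at 5.90, 2.64 and 2.23 CPM in bortezomib+TM tumours, against 1.13, 1.92 and 1.56 CPM in vehicle tumours. That is 1 of 10 effector genes, beside 4.96% of all tested genes with higher, non-overlapping bortezomib+TM tumours, and 0 of 10 lay wholly below vehicle, beside 5.01% of all genes. The log2 change was 1.22 (SE 0.53, 95% interval 0.019 to 2.43), with an unadjusted p of 0.0471 and an adjusted p of 0.887 by edgeR, and it was 0.67 without bortezomib+TM tumour 1. In bortezomib+AMD3100 tumours Gzma stood at 3.47, 0.954 and 2.80 CPM, and tumour 2 of this group was the lowest of all 9. The log2 change of bortezomib+AMD3100 against vehicle was 0.65 (SE 0.53, adjusted p = 0.734).

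Gzmk, a granzyme of memory and tissue T cells, rested on few reads, with 14 to 64 counts per tumour. Its levels were 1.41, 1.42 and 0.350 CPM in bortezomib+AMD3100 tumours, 1.16, 0.298 and 0.909 CPM in bortezomib+TM tumours, and 0.590, 0.708 and 1.32 CPM in vehicle tumours. Each treated group had 1 tumour below the lowest vehicle tumour. The 95% interval of the log2 change was wide, from -1.23 to 1.76 for bortezomib+AMD3100 and from -1.66 to 1.35 for bortezomib+TM against vehicle.

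Nkg7, whose protein sits in the granule membrane and is needed for granule release, stood at 18.5, 9.05 and 11.1 CPM in bortezomib+AMD3100 tumours, at 16.2, 12.1 and 8.78 CPM in bortezomib+TM tumours, and at 6.89, 3.41 and 11.8 CPM in vehicle tumours. Vehicle tumour 3 lay within the range of both treated groups, while the other vehicle tumours lay below all treated tumours. The log2 change was 0.81 (SE 0.45, adjusted p = 0.636) for bortezomib+AMD3100 and 0.74 (SE 0.45, adjusted p = 0.887) for bortezomib+TM. Without vehicle tumour 2 the changes were 0.46 and 0.40.

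Among the secreted and surface ligands, Ifng was low in every tumour, with 29 to 102 counts. It stood at 1.10, 2.09 and 1.40 CPM in bortezomib+AMD3100 tumours, at 1.66, 1.34 and 2.65 CPM in bortezomib+TM tumours, and at 1.11, 0.734 and 1.54 CPM in vehicle tumours. The highest level was in bortezomib+TM tumour 3 and the next in bortezomib+AMD3100 tumour 2, which are the treated tumours that lacked B cell transcripts. The log2 change was 0.43 (SE 0.43, adjusted p = 0.780) for bortezomib+AMD3100 and 0.73 (SE 0.43, adjusted p = 0.887) for bortezomib+TM against vehicle.

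Fasl was higher in all bortezomib+AMD3100 tumours, at 2.53, 2.09 and 1.85 CPM, than in all vehicle tumours, at 1.20, 0.632 and 1.73 CPM. The gap between the nearest tumours of these groups was small. The log2 change was 0.85 (SE 0.41, 95% interval -0.076 to 1.78, adjusted p = 0.634 by edgeR), and 0.55 without vehicle tumour 2. Bortezomib+TM tumours stood at 2.30, 1.36 and 1.56 CPM and overlapped both other groups.

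The receptor gene Klrk1 was nearly level within the bortezomib+AMD3100 group. It stood at 7.73, 7.40 and 7.40 CPM in bortezomib+AMD3100 tumours, all above the 5.41, 2.28 and 5.51 CPM of vehicle tumours. Klrk1 and Fasl were thus 2 of 10 effector genes with higher, non-overlapping bortezomib+AMD3100 tumours, beside 6.02% of all tested genes, and 0 of 10 lay wholly below vehicle, beside 7.34%. The log2 change of Klrk1 was 0.77 (SE 0.37, 95% interval -0.058 to 1.60, adjusted p = 0.634 by edgeR), and 0.46 without vehicle tumour 2. Bortezomib+TM tumours ran more widely, at 9.66, 5.77 and 4.83 CPM.

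Ncr1, the NK cell receptor, had the widest range of the 10 genes, 27.7-fold over the tumours. It stood at 3.38, 1.34 and 2.27 CPM in bortezomib+AMD3100 tumours, at 4.20, 1.32 and 1.17 CPM in bortezomib+TM tumours, and at 0.732, 0.152 and 1.56 CPM in vehicle tumours. The lowest value, in vehicle tumour 2, rested on 6 counts. Its fitted changes were the largest of the 10 genes in both comparisons with vehicle, at log2 1.51 (SE 0.78, adjusted p = 0.636) for bortezomib+AMD3100 and 1.44 (SE 0.78, adjusted p = 0.887) for bortezomib+TM. Both groups overlapped vehicle, and without vehicle tumour 2 the changes were 1.02 for bortezomib+AMD3100 and 0.96 for bortezomib+TM, where Gzma then had the larger change at 1.41. Without bortezomib+TM tumour 1 the change of Ncr1 with bortezomib+TM was 0.61.

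Tbx21, the transcription factor, stood at 6.88, 3.33 and 3.59 CPM in bortezomib+AMD3100 tumours, at 6.15, 3.15 and 2.39 CPM in bortezomib+TM tumours, and at 2.36, 0.885 and 3.65 CPM in vehicle tumours. In each treated group tumour 1 stood well above tumours 2 and 3. Vehicle tumour 3 lay above all treated tumours but these 2. The log2 change was 1.00 (SE 0.55, adjusted p = 0.636) for bortezomib+AMD3100 and 0.76 (SE 0.55, adjusted p = 0.887) for bortezomib+TM against vehicle, and 0.61 and 0.37 without vehicle tumour 2.

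Between the treated groups no effector gene separated the tumours. For bortezomib+AMD3100 against bortezomib+TM, 7 of 10 log2 changes were positive and 3 negative, with a median of 0.086, beside a median of 0.012 over all tested genes. Without bortezomib+AMD3100 tumour 1, 3 of 10 were positive, with a median of -0.14. The largest in size were -0.57 for Gzma (SE 0.53), 0.42 for Gzmk (SE 0.67) and 0.31 for Fasl (SE 0.41), each with an adjusted p of 0.996. For 0 of 10 genes did the groups not overlap, beside 3.68% of all genes in the higher and 3.69% in the lower direction. The 95% intervals still allowed sizeable differences, such as -0.95 to 0.43 for Gzmb and -1.64 to 1.77 for Ncr1.

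**Figure D2:**
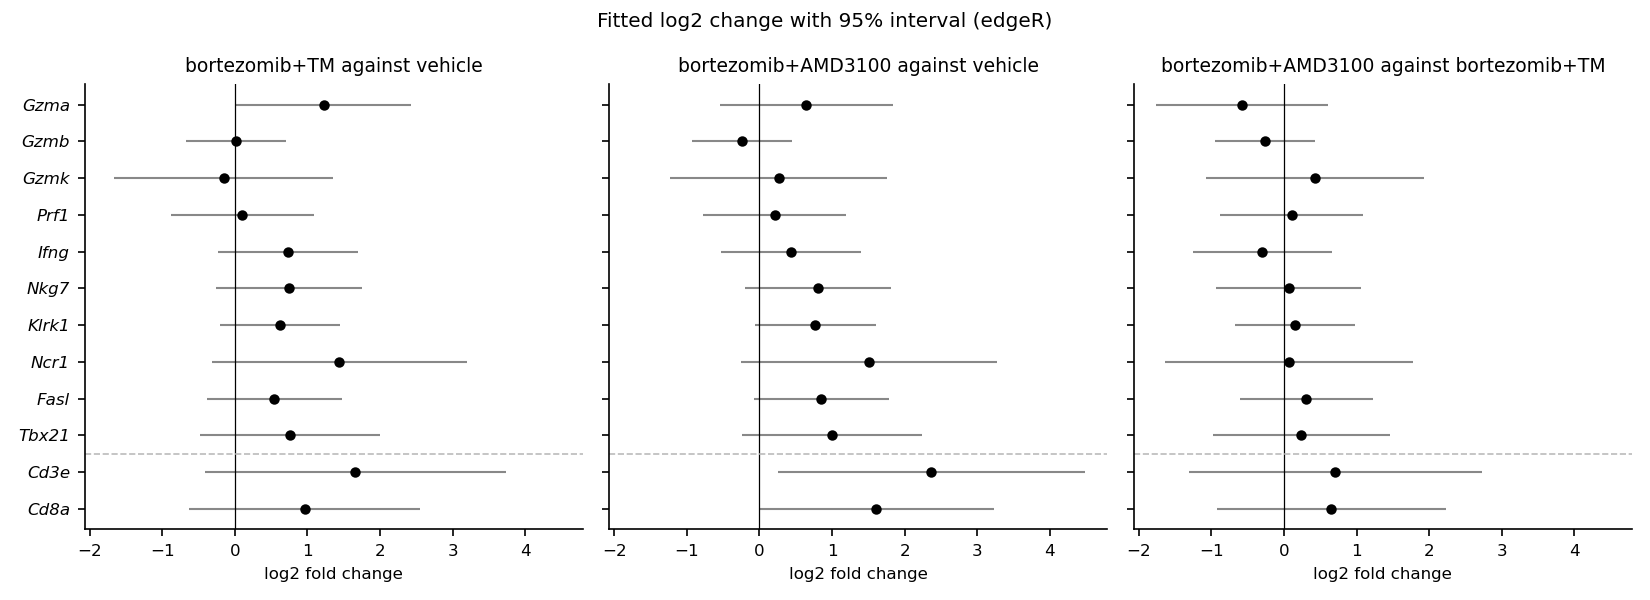
Fitted log2 change of each effector gene, and of Cd3e and Cd8a below the dashed line, with its 95% interval, in the 3 comparisons. Gzma for bortezomib+TM against vehicle and Cd3e for bortezomib+AMD3100 against vehicle are the genes whose unadjusted interval lies clear of 0.

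The plot of fitted changes sets the effector genes beside the T cell genes used as denominators. Cd3e stood at 80.3, 7.84 and 35.9 CPM in bortezomib+AMD3100 tumours, at 47.9, 21 and 7.19 CPM in bortezomib+TM tumours, and at 5.81, 2.78 and 15.4 CPM in vehicle tumours. This 28.9-fold range was wider than that of every effector gene. Cd8a stood at 93.4, 19.9 and 55.8 CPM in bortezomib+AMD3100 tumours, at 60.8, 26.7 and 20.2 CPM in bortezomib+TM tumours, and at 17.9, 5.16 and 32.2 CPM in vehicle tumours, an 18.1-fold range. Tumour 1 of each treated group was the highest in its group for both genes. The log2 change of Cd3e was 2.37 (SE 0.94, adjusted p = 0.634) for bortezomib+AMD3100 and 1.66 (SE 0.92, adjusted p = 0.887) for bortezomib+TM against vehicle, and for Cd8a it was 1.61 (SE 0.72) and 0.96 (SE 0.71).

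Set against the T cell genes, effector transcripts were lower per T cell transcript in treated than in vehicle tumours, though with wide overlap and no difference past the test used. The ratio to Cd3e averaged lower for all 10 genes in both comparisons with vehicle, by a median log2 difference of -1.48 for bortezomib+AMD3100 and -0.93 for bortezomib+TM. The ratio to Cd8a averaged lower for 9 of 10 genes in each comparison, by medians of -1.03 and -0.48. That test, the two-sided exact permutation test of 3 against 3 tumours, cannot give a p under 0.1. The smallest Benjamini-Hochberg adjusted p over the 20 ratios of a comparison was 0.400 for bortezomib+AMD3100 and 0.5 for bortezomib+TM against vehicle. All 10 ratios share 1 denominator, so their common sign is largely that of Cd3e or Cd8a and is not 10 separate observations.

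**Figure D3:**
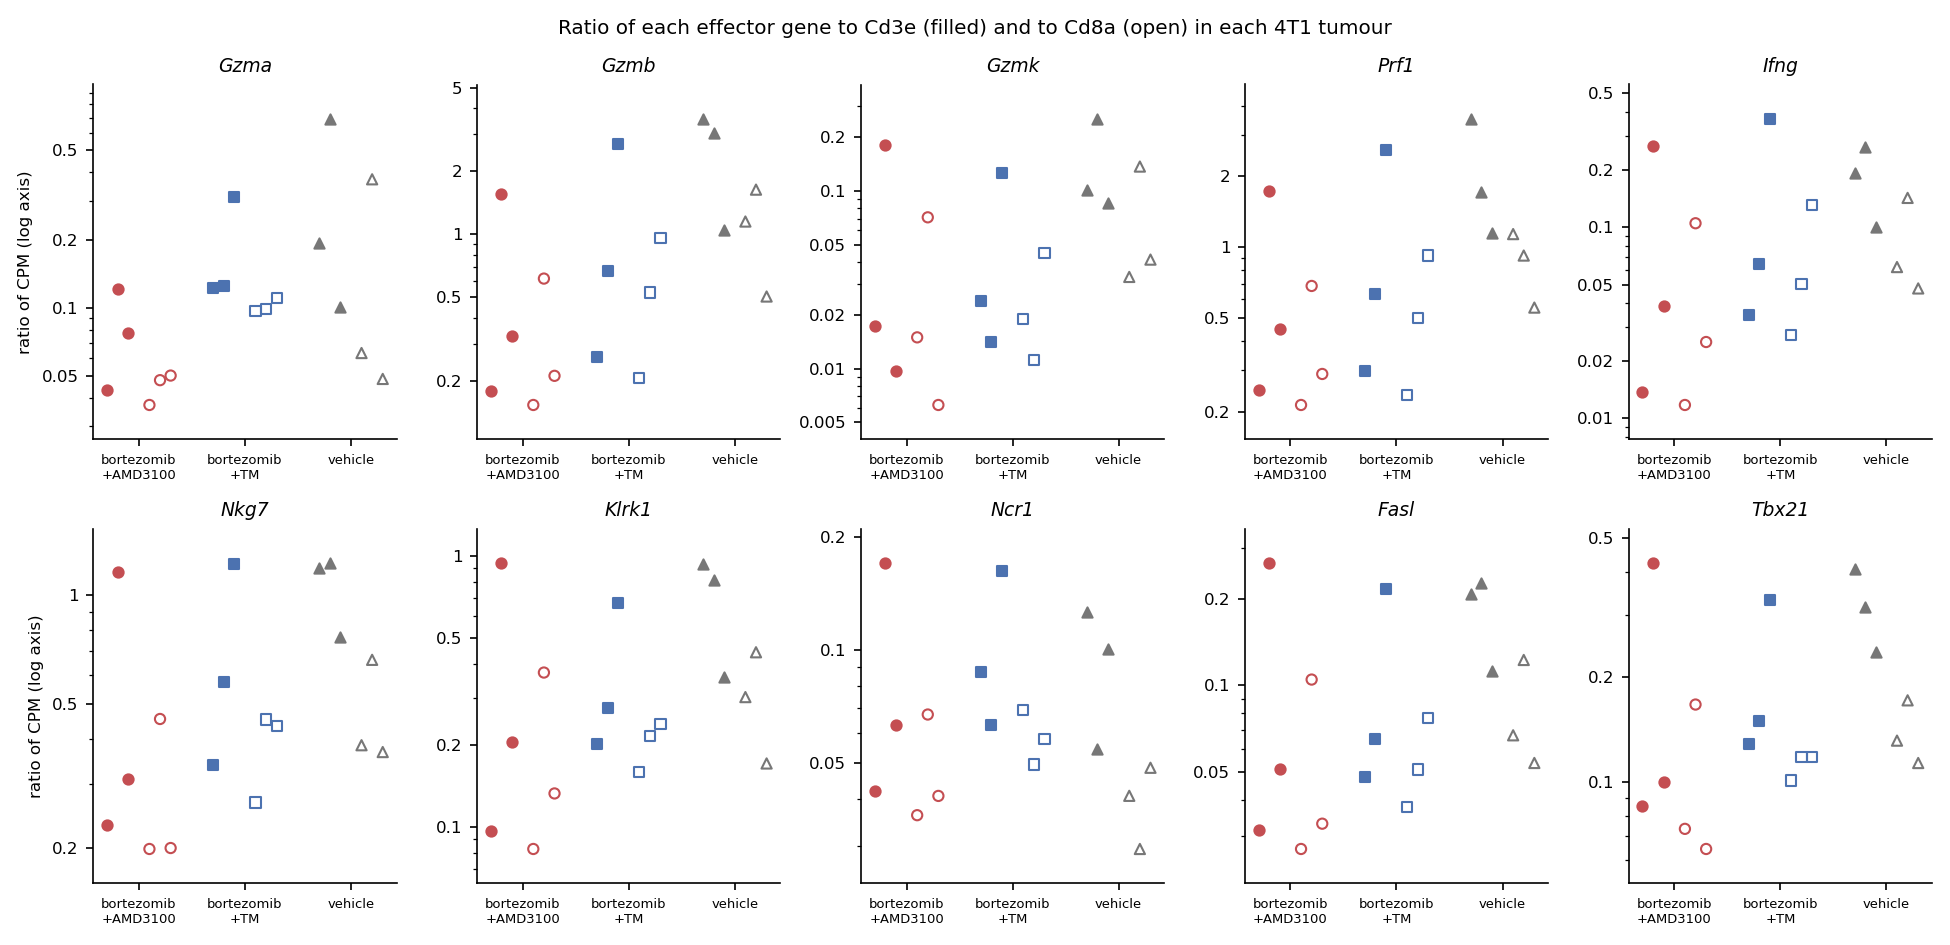
Ratio of each effector gene's CPM to that of Cd3e (filled) and of Cd8a (open) in the same tumour, on a log axis, with tumours 1, 2 and 3 of a group from left to right. Bortezomib+AMD3100 tumour 1 has the lowest ratio to Cd3e for every gene but Gzmk.

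The plot of ratios shows that the spread within a treated group follows the tumours rich and poor in T cell transcripts. This is in part built in, since a T cell gene is the denominator. Gzmb per Cd3e was 0.178, 1.56 and 0.328 in bortezomib+AMD3100 tumours, 0.261, 0.670 and 2.70 in bortezomib+TM tumours, and 3.55, 3.03 and 1.05 in vehicle tumours. Bortezomib+TM tumour 3 and bortezomib+AMD3100 tumour 2 thus lay within the vehicle range. The log2 difference of the group means was -2.30 for bortezomib+AMD3100 against vehicle (pooled SD 1.32, exact permutation p = 0.200), the largest of the 20 in this comparison. For bortezomib+TM against vehicle it was -1.51 (pooled SD 1.37, exact permutation p = 0.200). Prf1 per Cd3e followed a similar order, with 0.248, 1.74 and 0.449 in bortezomib+AMD3100 tumours, 0.298, 0.635 and 2.59 in bortezomib+TM tumours, and 3.51, 1.71 and 1.15 in vehicle tumours.

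Ncr1 kept the steadiest ratio, at 4.06-fold over the 9 tumours to Cd3e and 2.35-fold to Cd8a, although its own level varied most. Per Cd8a it was 0.0362, 0.0673 and 0.0408 in bortezomib+AMD3100 tumours, 0.0690, 0.0495 and 0.0578 in bortezomib+TM tumours, and 0.0408, 0.0294 and 0.0485 in vehicle tumours. All bortezomib+TM tumours lay above all vehicle tumours, by a log2 difference of 0.35 (pooled SD 0.16, exact permutation p = 0.1, the smallest possible, adjusted p = 0.5). The 0.1 CPM added for this test raised the ratio of vehicle tumour 2, where Ncr1 stood at 0.152 CPM, and narrowed the vehicle SD. The pooled SD therefore does not describe the ratios as printed. With a pseudocount of 1 CPM in place of 0.1 the difference turned to -0.29. Tbx21 per Cd8a was the next steadiest, with a 2.66-fold range, and Nkg7 per Cd8a had a 3.33-fold range.

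The widest ratios to Cd3e were those of Ifng (26.9-fold), Gzmk (26.2-fold) and Gzmb (19.9-fold). Ifng per Cd3e was 0.0137, 0.266 and 0.0389 in bortezomib+AMD3100 tumours, 0.0345, 0.0639 and 0.368 in bortezomib+TM tumours, and 0.191, 0.264 and 0.0996 in vehicle tumours. The tumours poorest in Cd3e had the highest ratios in all groups. Between the treated groups, Gzma per Cd8a was the 1 ratio without overlap, at 0.0372, 0.0479 and 0.0502 in bortezomib+AMD3100 tumours and 0.0971, 0.0990 and 0.111 in bortezomib+TM tumours. The log2 difference was -1.16 (pooled SD 0.20, exact permutation p = 0.1, adjusted p = 0.824).

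All 20 ratios averaged lower with bortezomib+AMD3100 than with bortezomib+TM, by a median log2 difference of -0.39 to Cd3e and -0.40 to Cd8a. For Cd3e this rested on single tumours. Without bortezomib+AMD3100 tumour 1, 7 of 10 ratios to Cd3e averaged higher with bortezomib+AMD3100, and without bortezomib+TM tumour 3, 8 of 10 did. The ratio to Cd8a stayed lower for 8 of 10 genes without the former tumour (median -0.12). Without the latter it stayed lower for 7 of 10 (median -0.24). Against vehicle the ratio to Cd3e stayed lower for all 10 genes with bortezomib+AMD3100, and for at least 9 of 10 with bortezomib+TM, when any 1 tumour of the comparison was left out. The median then ran from -2.18 to -0.78 with bortezomib+AMD3100 and from -1.56 to -0.53 with bortezomib+TM. The lowering of the ratio to Cd8a was smaller without vehicle tumour 2, at a median of -0.52 with bortezomib+AMD3100 and -0.15 with bortezomib+TM.

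Over the 9 tumours the effector genes fell into genes that tracked T cell transcripts and genes that did not. Nkg7, Klrk1, Ncr1, Fasl and Tbx21 correlated with both Cd3e and Cd8a on log2 CPM. Against Cd3e, Pearson's r was 0.92 for Nkg7, 0.91 for Tbx21, 0.90 for Ncr1, 0.80 for Fasl and 0.79 for Klrk1 (permutation p adjusted over 20 relations of 0.0141 or less). Against Cd8a it was 0.96 for Ncr1 and Tbx21, 0.95 for Nkg7, 0.90 for Fasl and 0.88 for Klrk1 (adjusted permutation p of 0.0095 or less). Spearman's rho ranged from 0.82 to 0.95 over these 10 relations (adjusted permutation p of 0.0216 or less).

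**Figure D4:**
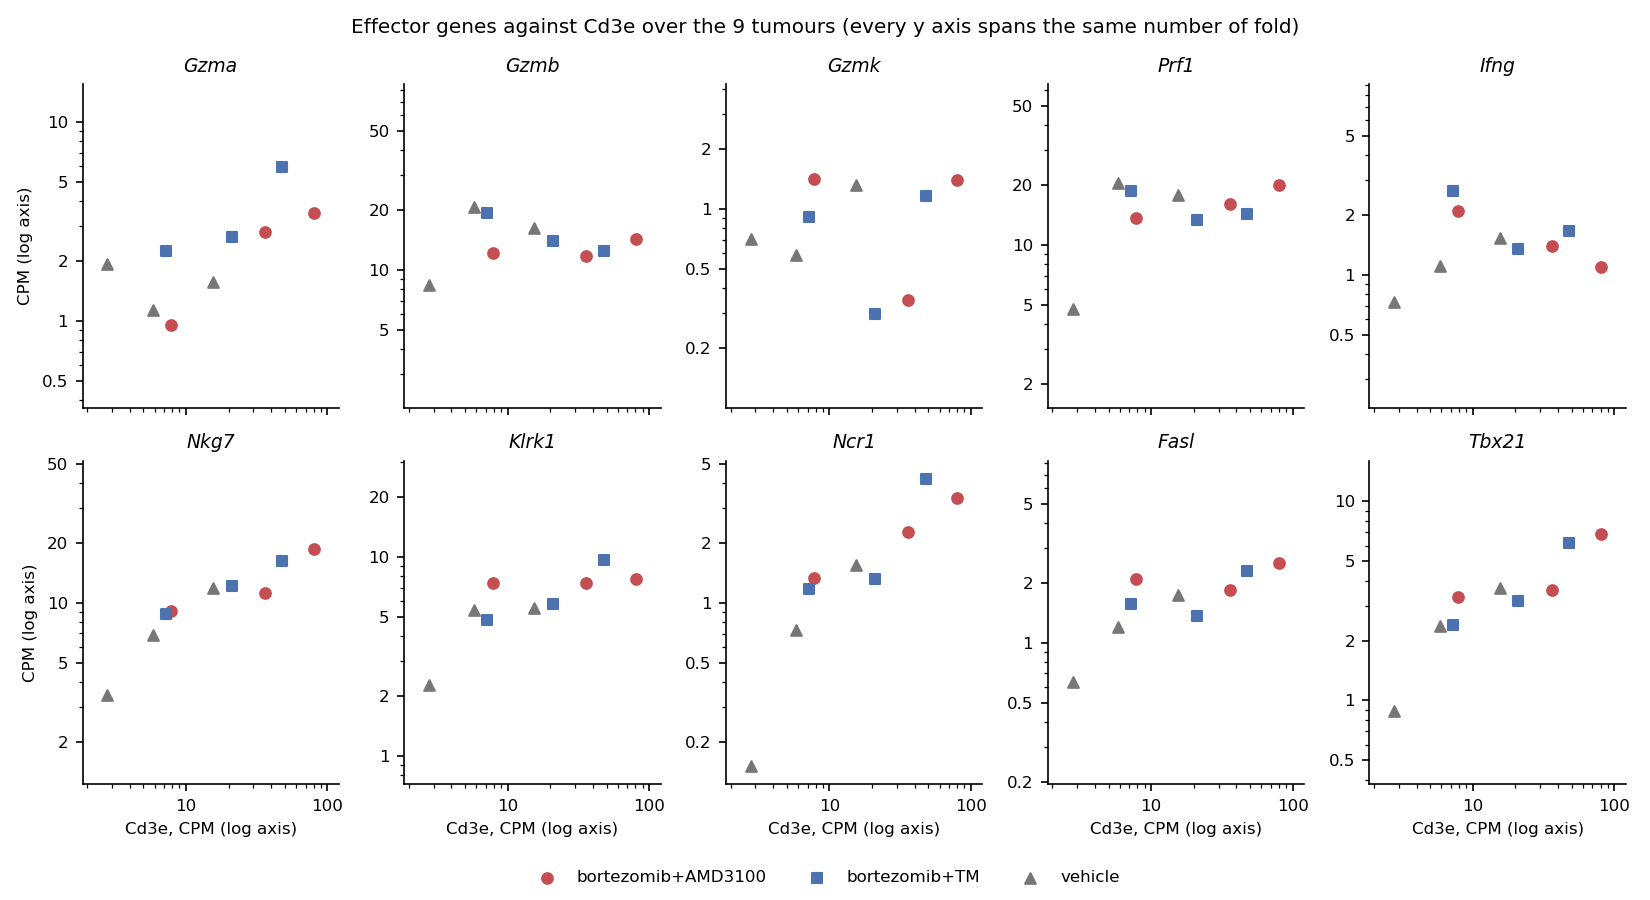
Level of each effector gene against Cd3e in the 9 tumours, both in CPM on log axes, with every vertical axis spanning the same fold. Nkg7, Ncr1 and Tbx21 climb along Cd3e, while Gzmb, Gzmk and Ifng lie flat across a 28.9-fold range of Cd3e.

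The plot against Cd3e shows Gzmb, Gzmk and Ifng without such a slope. Against Cd3e, r was 0.038 for Gzmb (rho -0.083), 0.079 for Gzmk (rho 0.18) and 0.10 for Ifng (rho 0.067), with adjusted permutation p of 0.879 or more. Prf1 lay between, at r 0.51 against Cd3e (adjusted permutation p = 0.230) and 0.71 against Cd8a (0.0881), and its rho was 0.13 and 0.27. Prf1's r rested on vehicle tumour 2, without which it was -0.097 and 0.063. Gzma reached r 0.72 against Cd3e (adjusted permutation p = 0.0541) and 0.58 against Cd8a (0.153), which did not pass, while its rho of 0.77 and 0.78 did (adjusted permutation p = 0.0358 and 0.0318). Without bortezomib+AMD3100 tumour 1 and vehicle tumour 2 its r was 0.84 and 0.80.

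Leaving out bortezomib+AMD3100 tumour 1 and vehicle tumour 2, the tumours farthest from the median of both Cd3e and Cd8a, kept 5 of the 10 passing relations past the threshold. These were Nkg7 with Cd3e (r 0.90), and Ncr1 (0.90 and 0.92) and Tbx21 (0.84 and 0.83) with Cd3e and Cd8a. Nkg7 with Cd8a (0.83, exact permutation p = 0.0544 after adjustment), Klrk1 (0.70 and 0.72) and Fasl (0.53 and 0.61) no longer passed with the 7 tumours left. Values centred on their group means, which removes differences between groups, gave r of 0.89, 0.85 and 0.85 for Nkg7, Ncr1 and Tbx21 against Cd3e. By adjusted permutation p, 8 of 20 relations passed on these values. The permutations shuffled centred values across groups without allowing for the means removed. Their p-values are therefore too small, and 8 may be too many. By Cd79a the tumours form a set of 5 and a set of 4, and no correlation was computed within either set. The set of 5, with Cd79a of 25.6 CPM or more, also held the 5 highest tumours for Cd3e and for Cd8a. Cd3e was 15.4 CPM or more in that set and 7.84 CPM or less in the other. Cd8a was 26.7 CPM or more and 20.2 CPM or less, so neither gene has a gap as wide as that of Cd79a. Relations with T cell transcripts and with B cell transcripts can therefore not be told apart here.

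The same 5 genes also tracked each other. Of 45 pairs of effector genes, 11 passed at an adjusted permutation p under 0.05, namely all 10 pairs among Nkg7, Klrk1, Ncr1, Fasl and Tbx21 (r 0.88 to 0.98) and the pair Gzmb and Prf1 (r 0.83, rho 0.80, adjusted p = 0.0130 by permutation, 0.061 for rho). Centred on group means the count was also 11, but those permutation p-values are again too small and 11 may be too many. Without the 2 farthest tumours of each pair 1 of 45 passed, Ncr1 with Tbx21 (r 0.94). The granzymes did not track one another: r was -0.21 for Gzma with Gzmb, -0.064 for Gzma with Gzmk and 0.069 for Gzmb with Gzmk.

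The other genes of the pathway are described from lists written with earlier results of these data known. No listed gene was called in any comparison. For the counts of genes above vehicle given below, the background is 8082 of 15846 tested genes with bortezomib+AMD3100 and 7995 with bortezomib+TM. All genes of a list were read in the same 9 tumours, so a shared direction is not a set of separate observations. Of the other granzymes, Gzmc to Gzmg are near-identical genes whose reads may be split between copies, so their values are uncertain. Gzmd, with a 16.2-fold range over the tumours, stood at 3.08, 3.66 and 23.7 CPM in bortezomib+AMD3100 tumours, at 1.56, 25.2 and 9.58 CPM in bortezomib+TM tumours, and at 13.7, 2.30 and 12.4 CPM in vehicle tumours. Gzmc stood at 7.76, 4.02 and 11.7 CPM, at 3.29, 18.3 and 11.7 CPM, and at 9.42, 2.28 and 8.46 CPM in the same groups. Among treated tumours both were lowest in bortezomib+TM tumour 1, the tumour with the highest level of Gzma, Klrk1 and Ncr1. Of 6 tested genes in this list 4 lay above vehicle with bortezomib+AMD3100 (median log2 0.10) and all 6 with bortezomib+TM (0.44).

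Of 11 tested genes that load and release granules, 7 lay above vehicle with bortezomib+AMD3100 (median log2 0.32) and 6 with bortezomib+TM (0.079). Lamp1, a lysosome membrane protein that reaches the surface of degranulating cells, averaged 684 ± 32.1 CPM with bortezomib+AMD3100, 719 ± 71.8 CPM with bortezomib+TM and 832 ± 126 CPM with vehicle (SD, n = 3 each), and Ctsc, the protease that activates granzymes, stayed between 232 and 509 CPM. Both genes are active in many cell types. Ctsw, which encodes a protease of cytotoxic lymphocytes, was singled out after its values were seen: it had a log2 change of 1.23 (SE 0.51, unadjusted p = 0.0366, edgeR adjusted p = 0.634) with bortezomib+AMD3100 against vehicle.

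Death ligands and receptors other than Fasl lay above vehicle for 6 of 6 genes in both treated groups, with medians of 0.84 with bortezomib+AMD3100 and 0.63 with bortezomib+TM. The smallest of these log2 changes were 0.038 and 0.082, and the summed level was lowest in vehicle tumour 2, at 70.9 CPM. Ltb, a lymphotoxin chain made by lymphocytes, ranged from 12.3 to 237 CPM and was highest in bortezomib+AMD3100 tumour 1. Tnfrsf10b, the mouse TRAIL receptor, ranged from 29.7 to 50 CPM. Fas, the receptor of Fas ligand, was singled out after its values were seen, with 20.1, 21.5 and 20.3 CPM in bortezomib+AMD3100 tumours, 16.0, 21.7 and 21.4 CPM in bortezomib+TM tumours, and 12.2, 8.78 and 16.3 CPM in vehicle tumours. All bortezomib+AMD3100 tumours lay above all vehicle tumours (log2 0.73, SE 0.23, unadjusted p = 0.00996, edgeR adjusted p = 0.634).

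Of 14 tested NK receptor genes 12 lay above vehicle with bortezomib+AMD3100 (median log2 0.59) and 11 with bortezomib+TM (0.50). The most abundant, Fcgr3 and Tyrobp, encode an Fc receptor and a signalling adaptor that myeloid cells share, and their fitted changes against vehicle were negative in both treated groups. Fcgr3 stood at 85.4, 87.2 and 70.9 CPM in bortezomib+AMD3100 tumours, at 78.1, 74.3 and 75.2 CPM in bortezomib+TM tumours, and at 106, 100 and 101 CPM in vehicle tumours, so every treated tumour lay below every vehicle tumour (log2 -0.34 and -0.43, edgeR adjusted p = 0.634 and 0.887). Klra4 and Klra8, receptors of the Ly49 family, had no count in any tumour, while Klra7 of the same family ranged from 0.101 to 0.568 CPM. Whether the Balb/c strain carries Klra4 and Klra8 was not examined, so their lack of counts is not read as a trait of these tumours. The ligands of NKG2D showed no shared direction, with 2 of 4 above vehicle in bortezomib+AMD3100 tumours and 1 of 4 in bortezomib+TM tumours. Ulbp1 ranged from 8.84 to 27.6 CPM and H60b from 0.660 to 3.01 CPM.

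Transcription factors of effector cells lay above vehicle for 8 of 8 genes in both treated groups (median log2 0.89 with bortezomib+AMD3100 and 0.40 with bortezomib+TM). The smallest of these changes were 0.0072 and 0.012, and the summed level was lowest in vehicle tumour 2, at 165 CPM. Zeb2, which supports terminal effector cells and is also made by myeloid cells, ranged only from 71.6 to 94.6 CPM. Tcf7, which encodes a factor of naive and memory T cells, stood at 239, 24.9 and 115 CPM in bortezomib+AMD3100 tumours, at 140, 53.6 and 14.7 CPM in bortezomib+TM tumours, and at 20.1, 16.6 and 51.5 CPM in vehicle tumours, an order close to that of Cd3e. Cytokine input genes, which include the receptors and subunits of interleukins 12, 15 and 18, lay above vehicle for 10 of 11 genes with bortezomib+AMD3100 (0.35) and 8 of 11 with bortezomib+TM (0.16). Their summed level was 175, 88.2 and 177 CPM in vehicle tumours 1, 2 and 3. It was 166 to 197 CPM with bortezomib+AMD3100 and 140 to 175 CPM with bortezomib+TM. Il12rb1 ranged from 27.6 to 76.8 CPM and Il18rap from 24.7 to 59.8 CPM, and vehicle tumour 2 was the lowest for both.

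Of the genes downstream of interferon gamma, 15 of 16 receptors and targets lay above vehicle with bortezomib+AMD3100 (median log2 0.30) and 16 of 16 with bortezomib+TM (0.38). Summed, these genes stood at 2307, 2666 and 2439 CPM in bortezomib+AMD3100 tumours and at 2068, 2649 and 3078 CPM in bortezomib+TM tumours. In vehicle tumours the sums were 2472, 1250 and 2352 CPM, so vehicle tumour 2 alone stood below all treated tumours. Irf1, a target and transcription factor, stood at 335, 364 and 329 CPM in bortezomib+AMD3100 tumours, at 292, 360 and 379 CPM in bortezomib+TM tumours, and at 339, 208 and 345 CPM in vehicle tumours. Apart from vehicle tumour 2, the lowest, these levels overlapped between the groups. Chemokines and receptors of effector cells lay above vehicle for 9 of 9 genes with bortezomib+AMD3100 (0.37) and 7 of 9 with bortezomib+TM (0.37). Their summed level was 157, 89.1 and 166 CPM in vehicle tumours 1, 2 and 3. It was 150 to 188 CPM with bortezomib+AMD3100 and 113 to 170 CPM with bortezomib+TM. Cx3cr1, a receptor of effector lymphocytes and macrophages, ranged from 4.39 to 55.8 CPM.

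Markers of other cells differed between the same tumours. The summed level of 10 T cell markers was 84.2 to 815 CPM with bortezomib+AMD3100, 77.3 to 489 CPM with bortezomib+TM and 31.9 to 176 CPM with vehicle. All 10 lay above vehicle in both treated groups, with a median log2 change of 2.27 for bortezomib+AMD3100 and 1.45 for bortezomib+TM, against 0.71 and 0.68 for the effector genes. With bortezomib+AMD3100, 8 of 10 T cell markers had an unadjusted p under 0.05, beside 7.22% of all tested genes, and 0 an adjusted one. Besides Cd3e and Cd8a, which this list also holds, Lck and Cd4 were the most abundant, and Cd4 stood at 119, 7.09 and 49.6 CPM in bortezomib+AMD3100 tumours, at 80.5, 19.8 and 4.62 CPM in bortezomib+TM tumours, and at 5.71, 3.19 and 17.2 CPM in vehicle tumours.

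**Figure D5:**
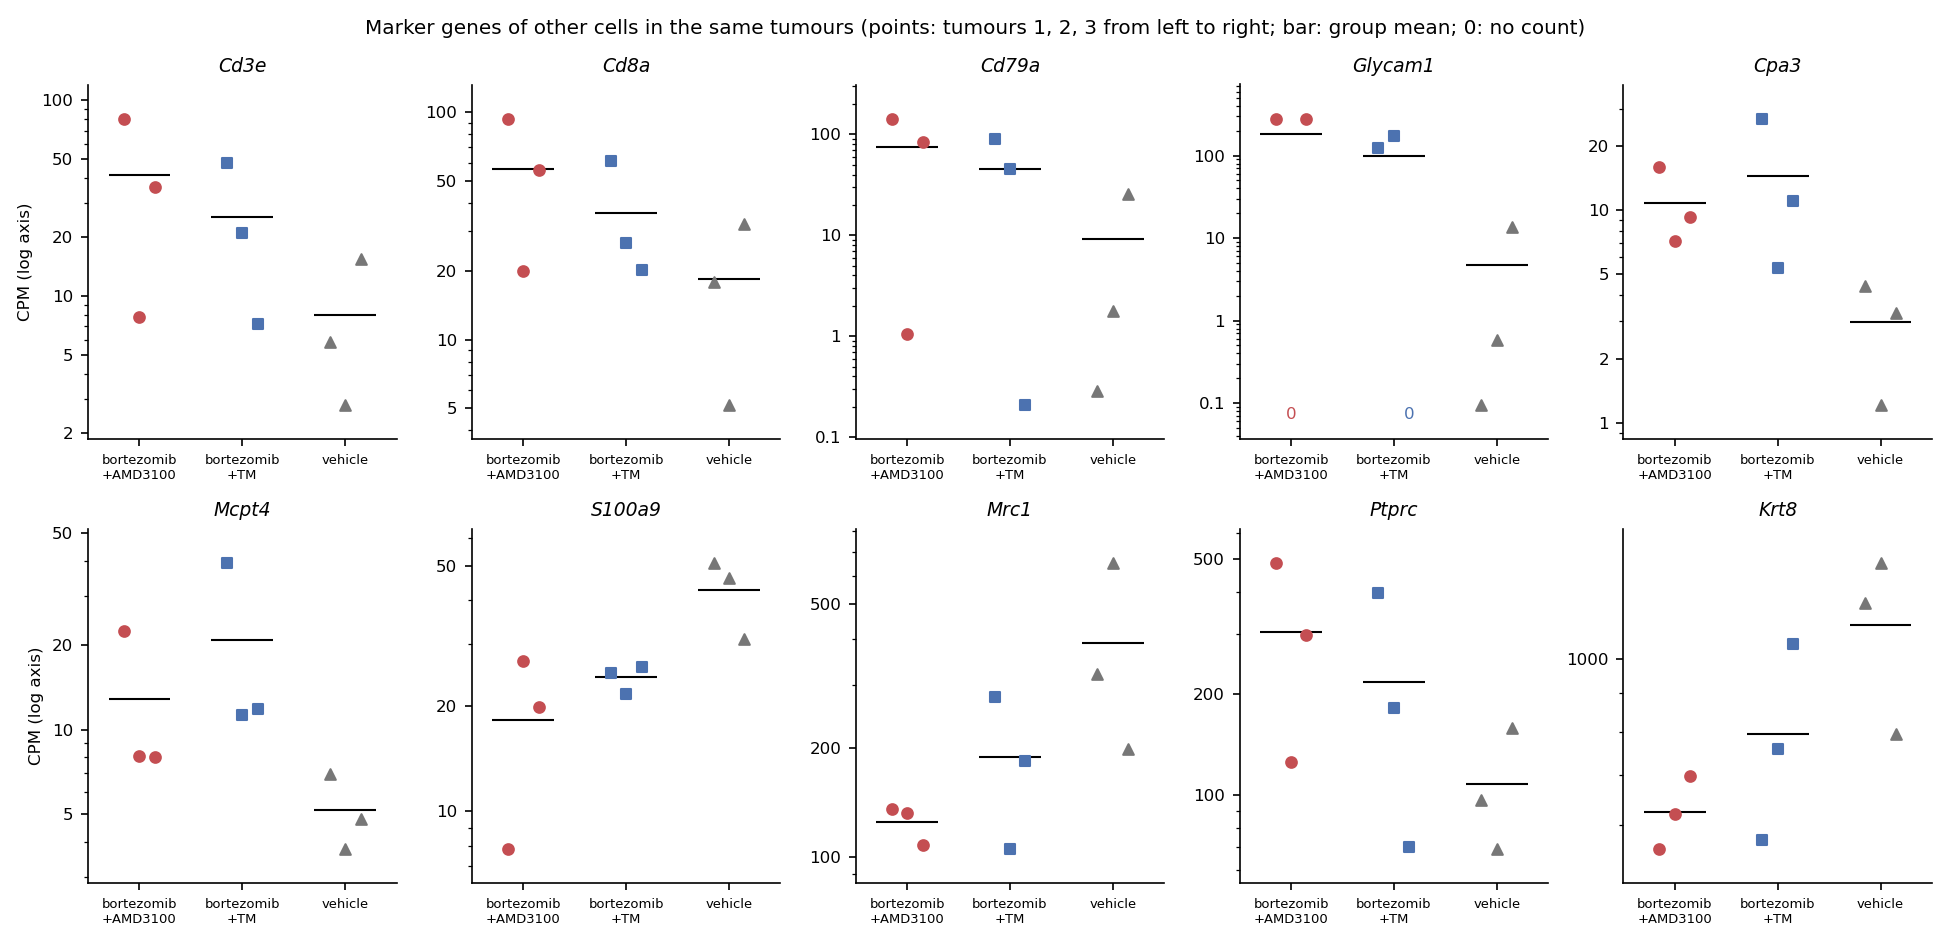
Marker genes of T cells (Cd3e, Cd8a), B cells (Cd79a), lymph node vessels (Glycam1), mast cells (Cpa3, Mcpt4), neutrophils (S100a9), macrophages (Mrc1), all leukocytes (Ptprc) and epithelial tumour cells (Krt8) in each tumour, in CPM on a log axis. Cd79a and Glycam1 split the tumours within each group, and all bortezomib+AMD3100 tumours lie below all vehicle tumours for S100a9, Mrc1 and Krt8.

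The plot of marker genes shows the B cell and lymph node genes that split the tumours. Summed B cell and plasma cell markers ran from 17.3 to 1022 CPM with bortezomib+AMD3100, from 10.2 to 1307 CPM with bortezomib+TM and from 15.1 to 183 CPM with vehicle, with Jchain and Cd79a the most abundant, and all 10 lay above vehicle in both treated groups. Summed lymph node stroma markers ran from 2.47 to 311 CPM with bortezomib+AMD3100, from 1.82 to 205 CPM with bortezomib+TM and from 1.32 to 23.4 CPM with vehicle. Glycam1, which is made by lymph node high endothelial vessels and also by the mammary gland, stood at 280, 0 and 275 CPM in bortezomib+AMD3100 tumours, at 123, 172 and 0 CPM in bortezomib+TM tumours, and at 0.0944, 0.582 and 13.7 CPM in vehicle tumours. Cxcl13, the B cell chemokine, was at 6.3 CPM or more in the 5 tumours with Cd79a of 25.6 CPM or more, and at 1.55 CPM or less in the other 4. Ccl21a, a lymph node chemokine, had no count in any tumour. Whether its reads could be counted in this table was not examined, so this is not read as absence. Ccl19, another lymph node chemokine, had 516 counts in bortezomib+TM tumour 2 and 78 in vehicle tumour 3. It had 15 counts or fewer in each other tumour. The 5 tumours with Cd79a of 25.6 CPM or more include tumour 1 of each treated group. Tumour 1 was among the 3 highest for 8 effector genes in bortezomib+AMD3100 and for 7 in bortezomib+TM. The part of T cell, B cell or lymph node content in the effector levels was not tested.

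Myeloid and tumour cell markers mostly lay below vehicle. This held for 5 of 6 neutrophil, 6 of 6 macrophage and 7 of 7 mammary tumour cell markers with bortezomib+AMD3100, and for 4, 6 and 6 of them with bortezomib+TM, and 0 passed adjustment. S100a9, a neutrophil protein, stood at 7.82, 26.8 and 19.8 CPM in bortezomib+AMD3100 tumours, at 24.8, 21.6 and 25.7 CPM in bortezomib+TM tumours, and at 50.9, 46.1 and 31.0 CPM in vehicle tumours, so all treated tumours lay below all vehicle tumours. Its partner S100a8 showed the same separation. The complement gene C1qa, a macrophage marker, ranged from 359 to 436 CPM with bortezomib+AMD3100, from 278 to 447 CPM with bortezomib+TM and from 395 to 591 CPM with vehicle, and C1qb from 222 to 307, from 160 to 275 and from 237 to 381 CPM. Krt8, an epithelial keratin of the tumour cells, was 557, 620 and 698 CPM in bortezomib+AMD3100 tumours, 572, 759 and 1048 CPM in bortezomib+TM tumours, and 1190, 1345 and 794 CPM in vehicle tumours, and Krt18 ran in parallel.

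Mast cells also make granule proteases, and in mice they can make granzyme B. Summed mast cell and basophil markers were 39.1 to 104 CPM with bortezomib+AMD3100, 57.4 to 175 CPM with bortezomib+TM and 17.4 to 39.8 CPM with vehicle, and 5 of 6 lay above vehicle in each treated group. The exception was Mcpt8, the basophil protease, with log2 changes of -0.88 and -0.35. It stood at 1.63, 0.851 and 1.67 CPM in bortezomib+AMD3100 tumours, all below the 2.67, 1.72 and 3.25 CPM of vehicle tumours. In bortezomib+TM tumours it stood at 1.19, 2.64 and 2.18 CPM. Tpsb2, a mast cell tryptase, stood at 42.7, 15.9 and 31.1 CPM in bortezomib+AMD3100 tumours, at 72.3, 27.9 and 28.2 CPM in bortezomib+TM tumours, and at 18.3, 8.40 and 12.1 CPM in vehicle tumours. Mcpt4, a mast cell chymase, was above every vehicle tumour in all treated tumours. Gzmb had its highest level in vehicle tumour 1, and which cells its transcripts came from was not tested. Dendritic cell markers lay above vehicle for 5 of 6 genes in both treated groups, although the most abundant, Zbtb46 (6.82 to 8.55 CPM) and Batf3 (6.28 to 9.87 CPM), hardly varied. The rest varied widely, namely Siglech (0.260 to 17.7 CPM), Flt3 (1.17 to 12.2 CPM), Clec9a (1.43 to 11.5 CPM) and Xcr1 (1.06 to 8.08 CPM). Each of them was highest in bortezomib+TM tumour 1. How far these cells bear on the effector levels was not tested.

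Among 13524 other genes with a mean of at least 1 CPM, those whose pattern over the 9 tumours was most like the mean pattern of the 10 effector genes were Dnajc27 (Pearson's r 0.96), Lgals9 (0.96), A530040E14Rik (0.96), Slc19a1 (0.95) and P2ry14 (0.95). Lgals9, which encodes galectin 9, stood at 155, 131 and 128 CPM in bortezomib+AMD3100 tumours, at 140, 123 and 120 CPM in bortezomib+TM tumours, and at 117, 87.5 and 133 CPM in vehicle tumours. It was also the gene most like Fasl (r 0.97). For single genes the closest were Mx2, an interferon-induced gene, for Ncr1 (0.99), Sytl2 for Tbx21 (0.98), Fgf13 for Nkg7 (0.98), D16Ertd472e for Klrk1 (0.98) and H2-DMb1, which encodes a chain of the class II peptide loader, for Prf1 (0.97). Insig1 was closest to Ifng (0.95), Oxld1 to Gzma (0.94), Ptx3 to Gzmb (0.93) and Wdr24 to Gzmk (0.92). These are descriptions over 9 points picked as the highest of many, and vehicle tumour 2 was lowest for most of these genes.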

How the data were processed

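The starting point was the table of gene counts deposited by the authors for the 4T1 tumours, with 1 column for each of 9 tumours and no column left over. Per the submitters' processing notes, featureCounts 2.0.1 made the counts on GRCm38 for mouse, with MultiQC 1.11 among the tools named. Per the labels, poly(A) libraries were read as paired ends. The aligner, the annotation and the strand setting are not given in the sources used here. Even numbers made up 58.0% to 66.1% of counts between 1 and 20, so mates of a pair may have been counted singly, which was not tested.

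The counts were fitted with edgeR 4.0.16 in R 4.3.3 (filterByExpr, TMM, quasi-likelihood F test, 1 coefficient per group, common coefficient of variation 0.316), with p-values adjusted over all 15846 tested genes. SE is the absolute log2 change over the square root of F. The code of the fit was checked on simulated counts, with a pass mark set at less spread than these tumours show. That check does not tell how many true changes the fit would find here. Ratios are CPM over CPM, and their tests use log2 with 0.1 CPM added to each. Correlations used 100000 permutations (exact for 7 tumours) and log2 CPM with a prior count of 2. Alternatives were DESeq2 1.42.0, limma-voom from limma 3.58.1, median-of-ratios scaling, no filter, a replicate block, the 6 tumours alone and leaving out each tumour.

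The effector genes and all lists were chosen with earlier results of these data known. Named from each list are the called genes or, where fewer than 2 were called, the 2 most abundant. Further genes from the lists were picked with the values in view, as was the test of 45 pairs. These genes are Ccl19, Clec9a, Cpa3, Ctsw, Fas, Flt3, Klra7, Mcpt8, Mrc1, Ptprc, Siglech, Xcr1 and those without a count. Some genes that this rule names are not reported here. Genes most alike were taken by the highest r over the 9 tumours. Replicate numbers were not taken to pair the tumours, since not every same-numbered pair deviated together. Genes of the T cell receptor constant regions were not analysed here, nor were the human libraries of the series.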

Additional observations from a re-analysis of the deposited data

How the results depend on the processing

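No effector gene was called under any alternative run. Counts of genes called in the whole table changed with DESeq2, to 17 for bortezomib+AMD3100 against vehicle, 3 for bortezomib+TM against vehicle and 6 between the treated groups, and with the 6 tumours fitted alone to 1 for bortezomib+AMD3100 against vehicle. Leaving out 1 tumour gave 0 to 1 called genes in both comparisons with vehicle. The cause was not tested. With the replicate block no gene was called and the log2 change of Nkg7 between the treated groups was -0.0057. Same-numbered tumours did not deviate together in every pair, with correlations from -0.47 to 0.60.

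When 1 tumour was left out, the log2 change against vehicle ran from -0.53 to 0.050 for Gzmb, from -0.023 to 0.70 for Gzmk and from -0.21 to 0.55 for Prf1 with bortezomib+AMD3100, and with bortezomib+TM from -0.27 to 0.31 for Gzmb, from -0.54 to 0.28 for Gzmk and from -0.31 to 0.45 for Prf1. Between the treated groups it ran from -0.60 to 0.028 for Ifng, from -0.038 to 0.48 for Klrk1, from -0.30 to 0.88 for Ncr1, from -0.29 to 0.28 for Nkg7, from -0.051 to 0.26 for Prf1 and from -0.17 to 0.70 for Tbx21. The r against Cd3e then ran from -0.60 to 0.27 for Gzmb, from -0.17 to 0.28 for Gzmk, from -0.44 to 0.34 for Ifng and from -0.097 to 0.66 for Prf1, and against Cd8a from -0.54 to 0.43 for Gzmb, from -0.043 to 0.39 for Gzmk and from -0.42 to 0.50 for Ifng. Without the 2 farthest tumours r turned negative against Cd3e and Cd8a for Gzmb (-0.71 and -0.66), Gzmk (-0.24 and -0.12), Prf1 (-0.51 and -0.34) and Ifng (-0.24 and -0.19), and on centred values for Ifng (-0.30 and -0.0088).

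Counts were as low as 6 for Ncr1 and 14 for Gzmk in 1 tumour, which limits the precision of these genes most.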
